A study of Mus musculus with 12 samples.

Results

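The 34 genes described here are type I interferon-stimulated genes (ISGs), that is, genes whose transcription rises when a cell responds to interferon-alpha or interferon-beta. They were taken by gene symbol from a list that was drawn up with earlier results of these data known. All 34 were found among the 55885 genes of the expression table from mouse hearts, and all 34 passed the filter into the 13815 genes tested (at least 1 TPM, transcripts per 1000000, in at least 3 of the 12 hearts). Oas3 and Mx1 reached 1 TPM only in hearts that had not received cisplatin, so that the filter was passed through the groups in which they were higher.

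Type I interferon binds the receptor chains IFNAR1 and IFNAR2 on the cell surface, which activates the kinases JAK1 and TYK2. The complex ISGF3, of which STAT2 and IRF9 are parts, then enters the nucleus and binds the interferon-stimulated response element (ISRE) in the promoters of ISGs. STING is an adaptor of the endoplasmic reticulum that answers cyclic GMP-AMP made by cGAS on cytosolic DNA, and through the kinase TBK1 and the factor IRF3 it can switch on interferon-beta. In a healthy tissue ISGs are kept at a basal level, to which resident macrophages, endothelial cells and other cells contribute.

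The study asked what STING does in the cardiotoxicity of cisplatin (CDDP), a platinum drug that damages DNA. RNA-seq was carried out on heart tissue of 12 male mice aged 8 weeks (C57BL/6 in the labels, C57BL/6J in the methods of the study) in 4 groups of 3: wild-type mice without cisplatin (Saline), wild-type mice with cisplatin (CDDP), STING-/- mice without cisplatin (STING-/-), and STING-/- mice with cisplatin (STING-/-+CDDP). Cisplatin was injected into the peritoneum at 6 mg/kg on days 1, 8 and 15, and the hearts were taken on day 22. The genotype is written Tmem173-/- in the labels, which is the older symbol of Sting1, and the labels call the mice without cisplatin untreated, whereas the methods of the study describe saline. The STING-/- mice carried the knockout in the whole body and came from another supplier than the wild-type mice, so that the genotype and the source of the mice cannot be told apart. Each heart is 1 animal, and every value is from bulk tissue, in which fewer cells of a type and less RNA per cell cannot be told apart.

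Sting1, the targeted gene, was measured at 12.3, 6.59 and 6.5 TPM in Saline, 22.1, 5.62 and 8.81 TPM in CDDP, 3.82, 5.96 and 2.87 TPM in STING-/- and 4.26, 4.67 and 3.37 TPM in STING-/-+CDDP hearts. The STING-/- groups did not overlap with their wild-type counterparts and were lower, but reads were still assigned to the gene, and neither difference passed the test (log2 fold changes of -0.85 and -1.18, adjusted p = 1 and 0.147, limma). The heart muscle gene Myh6 was between 3006 and 11098 TPM in the 12 hearts. TPM values sum to about 1000000 in each heart and hold no sequencing depth, and between 19680 and 21024 genes were above 0 in a heart. The CDDP 1 heart stood apart from the rest, with a summed level of 8 neutrophil markers of 1120 TPM, where the other hearts had 4.6 to 90.8 TPM.

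The ISRE is the DNA element through which ISGF3 acts, and its core was looked for in the promoters of the members as the letters GAAA, any 2 letters and GAAA, on either strand, within the 250 bases before the start of a RefSeq transcript (GRCm38.p6). A promoter window was matched for 24 of the 34 members, and 10 of them (41.7%) held the core, against 3.43% of the 27001 other genes with a window and 2.98% of all 32851 windows. Of the members that fell in the CDDP hearts, 7 of 15 with a window held it, and of those that did not pass that test 3 of 9 (Oas3, Stat2 and Trim30a). Dhx58, Ifi204, Ifi27l2a, Mx1, Mx2, Oas2, Parp9, Parp14, Rtp4 and Usp18 had no window. The stretches around the core are shown for the 7 members that held it and fell. The letters of each core are in capitals (TTTC, 2 letters and TTTC where the core is on the other strand), and overlapping cores are joined. A match is a match of letters and not a measured binding site.
Isg15 (chr4:156200855-156200916, minus strand): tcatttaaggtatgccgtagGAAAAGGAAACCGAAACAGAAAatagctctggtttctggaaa
Ifit1 (chr19:34640765-34640833, plus strand): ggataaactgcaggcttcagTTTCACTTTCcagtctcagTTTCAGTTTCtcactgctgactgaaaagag
Ifit3 (chr19:34583353-34583436, plus strand): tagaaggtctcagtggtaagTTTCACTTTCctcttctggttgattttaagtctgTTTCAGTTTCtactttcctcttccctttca
Ifit3b (chr19:34607749-34607832, plus strand): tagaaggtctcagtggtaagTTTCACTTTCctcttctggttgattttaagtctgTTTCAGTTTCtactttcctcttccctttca
Oas1a (chr5:120907526-120907565, minus strand): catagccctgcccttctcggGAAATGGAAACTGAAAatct
Bst2 (chr8:71537567-71537622, minus strand): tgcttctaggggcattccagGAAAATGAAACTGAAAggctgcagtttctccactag
Rsad2 (chr12:26456543-26456592, minus strand): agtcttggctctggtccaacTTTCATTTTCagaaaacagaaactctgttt

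Isg15 held 3 overlapping cores, between 66 and 78 bases before its start. In Oas1a the pair of cores began 14 and 20 bases before the start, closest of the 7, and in Bst2 124 and 130 bases before it. Ifit1 held separate cores 85 and 104 bases before its start, and Rsad2 a single one at 120 bases. The stretches of Ifit3 and Ifit3b, neighbouring genes that arose by duplication, were identical over their 84 bases. The 4 Ifit genes lie in 1 cluster of chromosome 19 (Ifit2 starting at 34550694 and Ifit1 ending at 34650009 in GRCm38), with Ifit2, Ifit3, Ifit3b and Ifit1 in this order and gaps of 7111, 19238 and 27469 bases. Oas2, Oas3 and Oas1a lie together on chromosome 5, as do Oasl2 and Oasl1, and Rsad2 and Cmpk2 are divergent neighbours on chromosome 12, 12751 bases apart.

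Cisplatin in wild-type mice was compared first, to learn which ISGs were lower in the CDDP hearts than in the Saline hearts. Of the 34 members, 22 fell and 0 rose (limma, Benjamini-Hochberg adjusted p under 0.05), in a comparison in which 10.4% of all genes tested fell and 8.52% rose. The 22 include Mx1, which passed the filter only through hearts without cisplatin. Without the CDDP 1 heart 17 members passed, of 2147 of 13699 genes. The log2 fold changes ran from -2.10 (Ifi27l2a) to 0.17 (Ifi204), with a median of -0.98, where the median of all genes tested was -0.003. For 29 of the 34, every CDDP heart was below every Saline heart, a pattern held by 17.1% of all genes, and the 5 with overlap were Oasl2, Oas3, Ifih1, Ifi204 and Mx2. All fold changes are of log2(TPM + 1), which understates the change of genes with low TPM.

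**Figure D1:**
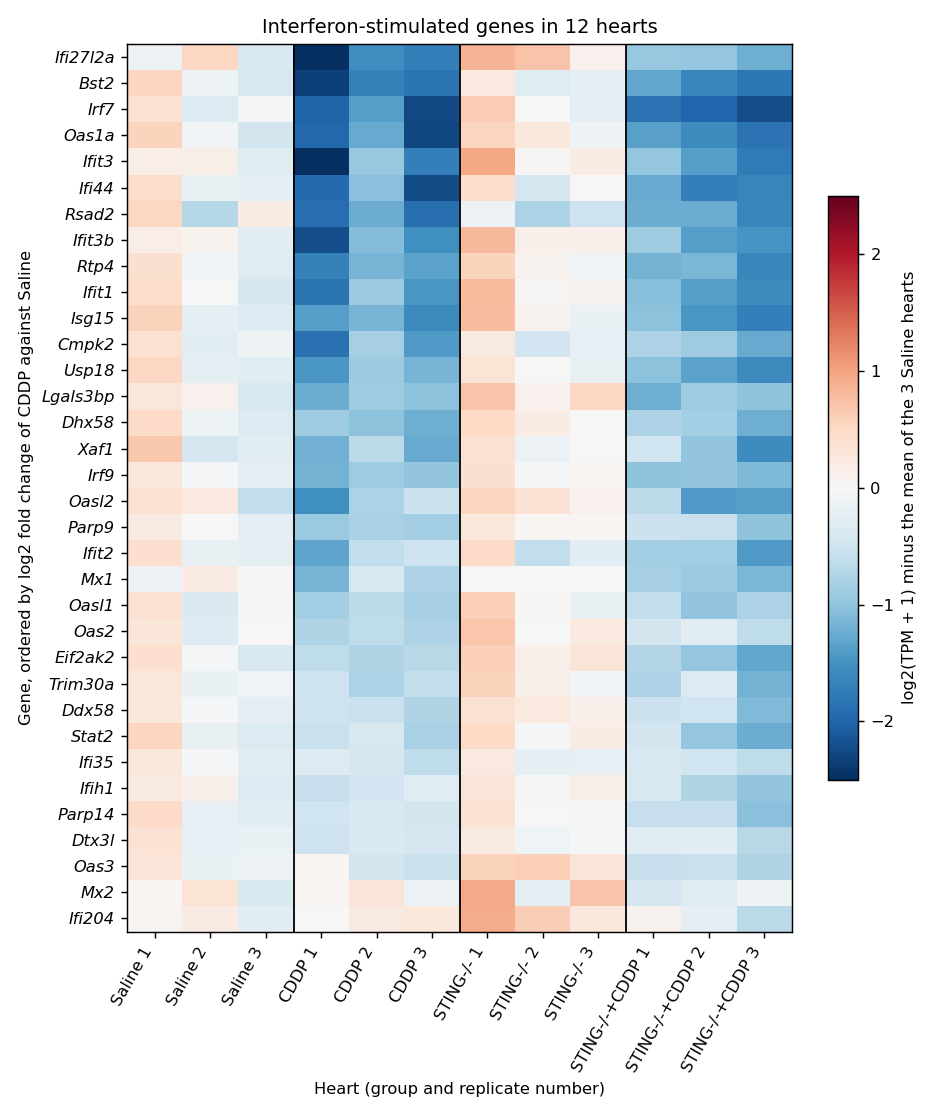
Heat map of the 34 members (lines, ordered by their log2 fold change of CDDP against Saline) in the 12 hearts (columns, by group and replicate number), in which the colour gives log2(TPM + 1) minus the mean of the 3 Saline hearts. The 3 CDDP and the 3 STING-/-+CDDP columns are lower than the columns without cisplatin for most genes, whereas Ifi204 and Mx2 at the other end of the order, with log2 fold changes of 0.17 and 0.09, are not lower in the CDDP columns.

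The transcription factors of the response come first in its order. Irf7 (chr7:141262706-141266481, minus strand) amplifies the production of interferon-alpha and is itself an ISG. It was at 78.8, 46.95 and 58.01 TPM in Saline against 14.2, 22.55 and 11.7 TPM in CDDP hearts, and it fell by 1.88 ± 0.28 (SE) on the log2 scale (adjusted p = 0.00174). Irf9, the DNA-binding subunit of ISGF3, was at 27.9, 22.02 and 19.1 TPM in Saline against 9.52, 11.8 and 11.05 TPM in CDDP hearts, and it fell by 1.02 ± 0.17 (SE) on the log2 scale (adjusted p = 0.00294). Both were lower in every CDDP heart than in any Saline heart. Stat2, which IRF9 binds, was at 21.2, 12.4 and 11.05 TPM against 9.37, 10.6 and 7.72 TPM, without overlap of the groups, but had a log2 fold change of -0.59 ± 0.26 (SE; adjusted p = 0.137) and did not pass the test. In the annotation (GENCODE M21), Irf9 overlaps Rnf31 on the same strand, so that reads could be shared between them.

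Of the 4 IFIT genes, whose proteins bind viral RNA that lacks the host's cap marks, 3 fell. Ifit3 was the most abundant at 42.9, 42.1 and 30.5 TPM in Saline against 4.91, 19.4 and 10.97 TPM in CDDP hearts, and it fell by 1.79 ± 0.40 (SE) on the log2 scale (adjusted p = 0.0113). Its copy Ifit3b was at 10.8, 10.3 and 7.85 TPM against 1.28, 3.99 and 2.67 TPM, and it fell by 1.61 ± 0.30 (SE) on the log2 scale (adjusted p = 0.0046). The pair shared 51.24% of the 50-base words of the Ifit3 transcripts, so that the division of reads between them is uncertain, but both fell. Ifit1 was at 15.8, 11.1 and 8 TPM in Saline against 2.44, 5.53 and 3.48 TPM in CDDP hearts, and it fell by 1.40 ± 0.30 (SE) on the log2 scale (adjusted p = 0.00963). Ifit2 was at 14.5, 9.24 and 8.86 TPM against 3.67, 6.55 and 7.1 TPM, and although its groups did not overlap, it had a log2 fold change of -0.82 ± 0.31 (SE; adjusted p = 0.0894). The CDDP 1 heart had the lowest value of its group for each of the 4.

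The OAS family makes 2′-5′ oligoadenylates on double-stranded RNA, which activate RNase L, and OASL1 and OASL2 are related proteins. Oas1a was at 15.6, 9.61 and 7.2 TPM in Saline against 1.89, 3.73 and 1.33 TPM in CDDP hearts, and it fell by 1.84 ± 0.31 (SE) on the log2 scale (adjusted p = 0.00308). Its transcripts shared 57.57% of their 50-base words with Oas1g, which also fell (by 1.20 on the log2 scale, adjusted p = 0.00294), so that the level of each is uncertain. Oas2 was at 8.26, 5.05 and 6.63 TPM against 3.45, 3.88 and 3.39 TPM, and it fell by 0.72 ± 0.21 (SE) on the log2 scale (adjusted p = 0.0357). Oasl1 was at 4.47, 2.25 and 3.1 TPM against 1.32, 1.66 and 1.36 TPM, and it fell by 0.77 ± 0.24 (SE) on the log2 scale (adjusted p = 0.0446). Both of these were lower without overlap but closer to the threshold than Oas1a. Oasl2 ranged from 12.24 to 25.35 TPM in Saline against 6.02 to 12.97 TPM in CDDP hearts, which overlapped, and it had a log2 fold change of -0.95 ± 0.32 (SE; adjusted p = 0.059). Oas3 was low, at 1.14, 0.55 and 0.59 TPM against 0.8, 0.27 and 0.19 TPM, and it had a log2 fold change of -0.32 ± 0.21 (SE; adjusted p = 0.326).

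ISG15 is a ubiquitin-like protein that is coupled to other proteins in an interferon response, and USP18 removes it and also brakes signalling at IFNAR2. Isg15 was at 58.02, 31.99 and 30.3 TPM in Saline against 14.2, 16.6 and 12 TPM in CDDP hearts, and it fell by 1.38 ± 0.30 (SE) on the log2 scale (adjusted p = 0.0096). Usp18 was at 16.98, 9.52 and 9.29 TPM against 3.56, 5.65 and 4.6 TPM, and it fell by 1.17 ± 0.25 (SE) on the log2 scale (adjusted p = 0.00963). In both genes the Saline 1 heart stood highest, and the groups did not overlap. The E1 and E2 enzymes that charge and carry ISG15, Uba7 and Ube2l6, are not among the 34 but fell too, by 1.68 and 1.56 on the log2 scale (adjusted p = 0.00452 and 0.00144).

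The 3 cytosolic RNA sensors are the helicases RIG-I (Ddx58), MDA5 (Ifih1) and LGP2 (Dhx58), and 2 of them fell. Dhx58 was at 5.46, 3.24 and 2.66 TPM in Saline against 1.5, 1.27 and 0.99 TPM in CDDP hearts, and it fell by 1.05 ± 0.24 (SE) on the log2 scale (adjusted p = 0.0115). Ddx58 was at 13.3, 10.7 and 8.97 TPM against 7.27, 7.06 and 6 TPM, and it fell by 0.61 ± 0.20 (SE) on the log2 scale (adjusted p = 0.0488), the largest adjusted p of the 22. Ifih1 was at 6.28, 5.77 and 3.88 TPM against 3.19, 3.46 and 4.02 TPM, and it had a log2 fold change of -0.45 ± 0.20 (SE; adjusted p = 0.139). The Ifih1 groups overlapped, with the Saline 3 heart below the CDDP 3 heart.

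Among the other antiviral effectors, 5 of 6 fell. Bst2 (tetherin), which holds budding virus at the cell surface, was at 188, 118 and 98.1 TPM in Saline against 24.8, 39.5 and 35.9 TPM in CDDP hearts, and it fell by 1.95 ± 0.26 (SE) on the log2 scale (adjusted p = 0.00106), the smallest adjusted p of the list. Rsad2 (viperin), which makes a chain-terminating nucleotide, was at 23.8, 9.51 and 18.7 TPM against 3.59, 6.33 and 3.68 TPM, and it fell by 1.68 ± 0.31 (SE) on the log2 scale (adjusted p = 0.00472). Its neighbour Cmpk2, a nucleotide kinase, was at 13.98, 8.61 and 9.5 TPM against 2.17, 5.48 and 3.32 TPM, and it fell by 1.36 ± 0.28 (SE) on the log2 scale (adjusted p = 0.00783). In all 3 of these genes the groups did not overlap. Rtp4, a transporter protein with antiviral activity, was at 37.3, 26.2 and 22.7 TPM against 8.02, 11.9 and 10.5 TPM, and it fell by 1.40 ± 0.24 (SE) on the log2 scale (adjusted p = 0.00309). Xaf1, an antagonist of the apoptosis inhibitor XIAP, was at 57.9, 26.4 and 29.7 TPM against 15.02, 22.2 and 14.3 TPM, and it fell by 1.04 ± 0.33 (SE) on the log2 scale (adjusted p = 0.046). Eif2ak2, the kinase PKR that halts translation on double-stranded RNA, was at 6.97, 4.81 and 3.5 TPM against 2.84, 2.52 and 2.65 TPM, and it had a log2 fold change of -0.69 ± 0.23 (SE; adjusted p = 0.0534), just short of the threshold and without overlap.

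Of the 6 remaining induced genes, 3 fell. Ifi27l2a was the most abundant member at 339, 532 and 286 TPM in Saline against 44.8, 127 and 113 TPM in CDDP hearts, and it fell by 2.10 ± 0.36 (SE) on the log2 scale (adjusted p = 0.00334). Ifi44 was at 9.9, 6.03 and 5.73 TPM against 1.08, 2.88 and 0.7 TPM, and it fell by 1.74 ± 0.33 (SE) on the log2 scale (adjusted p = 0.00495). Lgals3bp, a secreted glycoprotein that binds galectin-3, was at 107, 94.2 and 65.97 TPM against 36.3, 46.6 and 42.1 TPM, and it fell by 1.06 ± 0.20 (SE) on the log2 scale (adjusted p = 0.00573). For these 3 genes every CDDP heart was below every Saline heart. Trim30a and Ifi35 had log2 fold changes of -0.64 and -0.47 without overlap of the groups (adjusted p = 0.0796 and 0.0904). Ifi204, a DNA-binding protein of the p200 family, had groups that overlapped, at 9.07, 10.1 and 6.93 TPM in Saline against 8.71, 10.2 and 10.6 TPM in CDDP hearts (log2 fold change of 0.17, adjusted p = 0.652). It shares 20.02% of its 50-base words with other genes of the family, chiefly Ifi211.

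PARP9, PARP14 and DTX3L act in ADP-ribosylation and ubiquitin transfer in the interferon response, and 1 of their 3 genes fell. Parp9 was at 13.6, 11.7 and 9.64 TPM in Saline against 5.58, 6.12 and 5.85 TPM in CDDP hearts, and it fell by 0.87 ± 0.17 (SE) on the log2 scale (adjusted p = 0.00639). Dtx3l, its partner on the opposite strand, and Parp14 had log2 fold changes of -0.44 and -0.44 (adjusted p = 0.122 and 0.174), with no overlap of the groups for either. The genes of Dtx3l and Parp9 overlap in the annotation, and whether the libraries kept the strand is not given in the sources used here. The genes of the dynamin-like GTPases Mx1 and Mx2, a family that can block the nucleocapsids of viruses, were, beside Oas3, the least abundant members in the Saline hearts. In the annotation Mx2 is a polymorphic pseudogene, and whether either gene gives a working protein in these mice was not tested. Mx1 was at 1.35, 1.98 and 1.51 TPM against 0.16, 0.98 and 0.52 TPM, and it fell by 0.78 ± 0.21 (SE) on the log2 scale (adjusted p = 0.0269). Mx1 passed the filter only through hearts without cisplatin, so that its call carries no weight as support. Mx2 was at 1.92, 2.56 and 1.17 TPM against 1.98, 2.55 and 1.56 TPM, and it had a log2 fold change of 0.09 ± 0.30 (SE; adjusted p = 0.865). Both are low, and the difference between them was not tested.

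**Figure D2:**
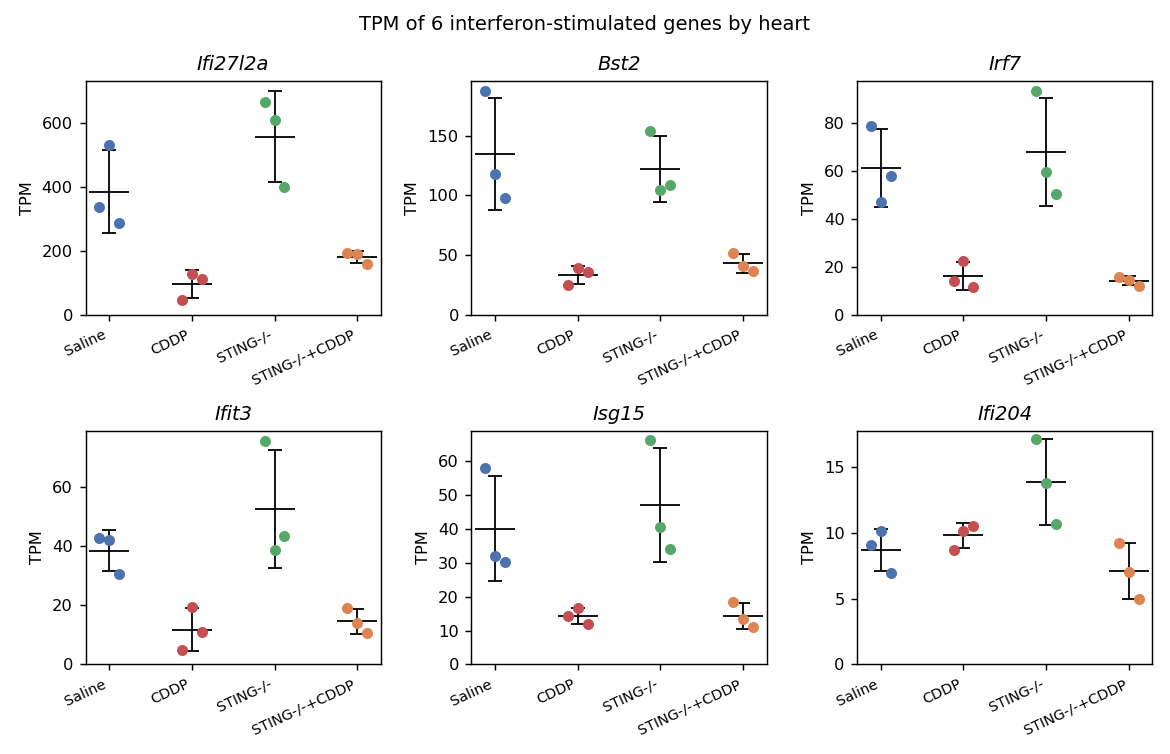
TPM by heart of 6 members in the 4 groups, each panel with its own axis from 0, with points for hearts and a line with bar for the mean and SD of 3. In Irf7, for example, the group means were 61.3 ± 16.2 TPM in Saline, 16.15 ± 5.68 in CDDP, 67.9 ± 22.6 in STING-/- and 14.2 ± 1.88 in STING-/-+CDDP, so that both cisplatin groups sit below both groups without it.

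In the CDDP comparison 14 of the 22 calls (Bst2, Cmpk2, Ifi27l2a, Ifi44, Ifit1, Ifit3b, Irf7, Irf9, Isg15, Lgals3bp, Oas1a, Parp9, Rsad2 and Rtp4) passed under each of the 22 alternative settings, those that leave out 1 heart included. With only the Saline and CDDP hearts in the fit 14 members passed, of all 822 genes that passed.

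The same treatment was then compared between STING-/-+CDDP and STING-/- hearts, to learn which ISGs were lower with cisplatin in mice with the STING knockout. Here 14 of the 34 fell and 0 rose, in a comparison in which 0.68% of all genes tested fell and 0.253% rose. The 14 include Oas3, which passed the filter only through hearts without cisplatin. All 34 log2 fold changes were below 0, from -2.14 (Irf7) to -0.45 (Ifi35 and Dtx3l), with a median of -1.11, where the median of all genes was -0.107. Every STING-/-+CDDP heart was below every STING-/- heart for 33 of the 34, the exception being Mx2, against 16.9% of all genes. The number that passed depended on single hearts: it was 1, 3 and 5 without STING-/- replicates 1, 2 and 3, where 18, 32 and 39 of all genes passed, and 1, 4 and 2 without STING-/-+CDDP replicates 1, 2 and 3, where 23, 48 and 28 did. It was 19 of 204 genes without CDDP replicate 1, a heart of neither group, and 14 of 129 genes with all hearts. All 34 log2 fold changes were below 0 in each of those fits. Of all genes that passed here 72.9% were lower, and with scaling by the median of ratios or quantile normalization 49.0% and 44.1% were, while 19 and 17 members passed and 0 of them rose.

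Irf7 had the largest fall, from 93.4, 59.6 and 50.6 TPM in STING-/- to 15.9, 14.4 and 12.2 TPM in STING-/-+CDDP hearts, and it fell by 2.14 ± 0.28 (SE) on the log2 scale (adjusted p = 0.00753). It was the member that passed under all 22 alternative settings. Irf9 was at 30.25, 22.1 and 24.01 TPM against 10.8, 11.03 and 9.9 TPM, and it fell by 1.18 ± 0.17 (SE) on the log2 scale (adjusted p = 0.0114). Stat2 was at 20.7, 13.9 and 16.4 TPM against 10.1, 6.86 and 5.49 TPM, and it had a log2 fold change of -1.11 ± 0.26 (SE; adjusted p = 0.0775). As in the wild-type mice, the factors Irf7 and Irf9 passed the test and Stat2 did not.

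Of the IFIT genes, Ifit1 and Ifit3b fell in the STING-/-+CDDP hearts. Ifit1 was at 20.2, 11.5 and 12.1 TPM in STING-/- against 4.86, 3.7 and 3.11 TPM in STING-/-+CDDP hearts, and it fell by 1.65 ± 0.30 (SE) on the log2 scale (adjusted p = 0.0286). Ifit3b was at 17.6, 10.5 and 10.6 TPM against 4.69, 3.06 and 2.81 TPM, and it fell by 1.60 ± 0.30 (SE) on the log2 scale (adjusted p = 0.0294). Ifit3, which shares sequence with Ifit3b, was at 75.55, 38.7 and 43.5 TPM against 19, 14.05 and 10.5 TPM, and it had a log2 fold change of -1.76 ± 0.40 (SE; adjusted p = 0.0674). The STING-/- 1 heart was the highest of its group in all 3. Isg15 was at 66.2, 40.6 and 34.2 TPM against 18.4, 13.3 and 11.05 TPM, and it fell by 1.63 ± 0.30 (SE) on the log2 scale (adjusted p = 0.0278). Usp18 was at 14.8, 11.4 and 9.99 TPM against 5.12, 3.93 and 3.13 TPM, and it fell by 1.37 ± 0.25 (SE) on the log2 scale (adjusted p = 0.0298).

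In the OAS family, Oas1a and Oas3 fell. Oas1a was at 15.3, 12.6 and 9.4 TPM in STING-/- against 3.4, 2.83 and 2.15 TPM in STING-/-+CDDP hearts, and it fell by 1.82 ± 0.31 (SE) on the log2 scale (adjusted p = 0.024). Oas3 was at 1.59, 1.62 and 1.19 TPM against 0.17, 0.19 and 0.04 TPM, and it fell by 1.12 ± 0.21 (SE) on the log2 scale (adjusted p = 0.0353). Oas3 passed the filter through its STING-/- hearts, where it was high, so that its call carries no weight as support. Oasl2 was at 28.3, 25.1 and 20.9 TPM against 11.9, 6.62 and 6.83 TPM, and it had a log2 fold change of -1.48 ± 0.32 (SE; adjusted p = 0.0598). Oasl1 and Oas2 had log2 fold changes of -0.94 and -0.77 (adjusted p = 0.101 and 0.127). Among the sensors, Dhx58 was at 5.58, 4.27 and 3.6 TPM against 1.71, 1.57 and 1 TPM, and it fell by 1.17 ± 0.24 (SE) on the log2 scale (adjusted p = 0.0429). Ddx58 was at 14.4, 12.96 and 11.96 TPM against 7.2, 7.37 and 4.48 TPM, and it fell by 0.96 ± 0.20 (SE) on the log2 scale (adjusted p = 0.0458). Ifih1 had a log2 fold change of -0.88 (adjusted p = 0.069).

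Of the other effectors, Bst2, Rtp4 and Eif2ak2 fell, as did Lgals3bp. Lgals3bp was at 143, 94.2 and 125 TPM in STING-/- against 37.1, 46.5 and 42.7 TPM in STING-/-+CDDP hearts, and it fell by 1.48 ± 0.20 (SE) on the log2 scale (adjusted p = 0.00849). Bst2 was at 154, 104 and 109 TPM against 52.04, 41.2 and 36.5 TPM, and it fell by 1.47 ± 0.26 (SE) on the log2 scale (adjusted p = 0.0267). Rtp4 was at 42.05, 29.9 and 26.6 TPM against 11.9, 12.1 and 8.36 TPM, and it fell by 1.51 ± 0.24 (SE) on the log2 scale (adjusted p = 0.0195). Every one of these had groups that did not overlap. Eif2ak2, which missed the threshold in the wild-type mice, was at 7.9, 5.44 and 6.38 TPM against 2.59, 2.05 and 1.42 TPM, and it fell by 1.33 ± 0.23 (SE) on the log2 scale (adjusted p = 0.024). Rsad2 was at 14.7, 8.97 and 11.1 TPM against 6.29, 6.35 and 4.58 TPM, and it had a log2 fold change of -0.89 ± 0.31 (SE; adjusted p = 0.223). Its neighbour Cmpk2 was at 12.35, 7.29 and 9.02 TPM against 5.7, 5.21 and 3.82 TPM, and it had a log2 fold change of -0.82 ± 0.28 (SE; adjusted p = 0.212).

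For the members that did not pass in the STING-/- mice, Mx2 excepted, each STING-/-+CDDP heart was still below each STING-/- heart. Ifi27l2a was at 667, 611 and 399 TPM in STING-/- against 193, 190.2 and 160.2 TPM in STING-/-+CDDP hearts, and it had a log2 fold change of -1.59 ± 0.36 (SE; adjusted p = 0.0674). Ifi44, Xaf1, Trim30a, Mx1, Parp9 and Parp14 had log2 fold changes of -1.54, -1.10, -0.98, -0.97, -0.83 and -0.85, with adjusted p between 0.0502 (Parp9) and 0.149 (Xaf1). Ifit2, Ifi204 and Mx2 had log2 fold changes of -0.92, -0.89 and -0.75 (adjusted p = 0.212, 0.101 and 0.293). Ifi35 and Dtx3l had the smallest, -0.45 and -0.45 (adjusted p = 0.293 and 0.322).

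Set side by side, the cisplatin comparisons of both genotypes share no hearts. They do share the estimate of the spread, which is taken from all 12 hearts, so that their calls are not independent. Both called 12 members lower: Ifit1, Ifit3b, Isg15, Irf7, Irf9, Oas1a, Usp18, Bst2, Ddx58, Dhx58, Rtp4 and Lgals3bp. Of all genes tested, 84 (0.608%) were lower in both. The 12 became 1, 3 and 5 without STING-/- replicates 1, 2 and 3, became 1, 4 and 2 without STING-/-+CDDP replicates 1, 2 and 3, and ran from 3 (no filter on low values) to 17 (median of ratios) over the settings that kept all hearts. In the wild-type mice but not in the STING-/- mice 10 passed (Ifit3, Oasl1, Oas2, Rsad2, Ifi27l2a, Ifi44, Xaf1, Parp9, Cmpk2 and Mx1), and in the STING-/- mice but not in the wild-type mice 2 passed (Oas3 and Eif2ak2). The 10 members that passed in neither were Ifit2, Oasl2, Stat2, Ifi35, Ifih1, Parp14, Dtx3l, Trim30a, Ifi204 and Mx2. Passing in 1 genotype alone does not show that the genotypes differ, and the interaction given further on tests that difference. Across the 34 members the log2 fold changes of the genotypes had a Pearson correlation of 0.742, a description over genes that share the same hearts, and the log2 fold change was lower in the STING-/- mice for 24 members and lower in the wild-type mice for 10.

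**Figure D3:**
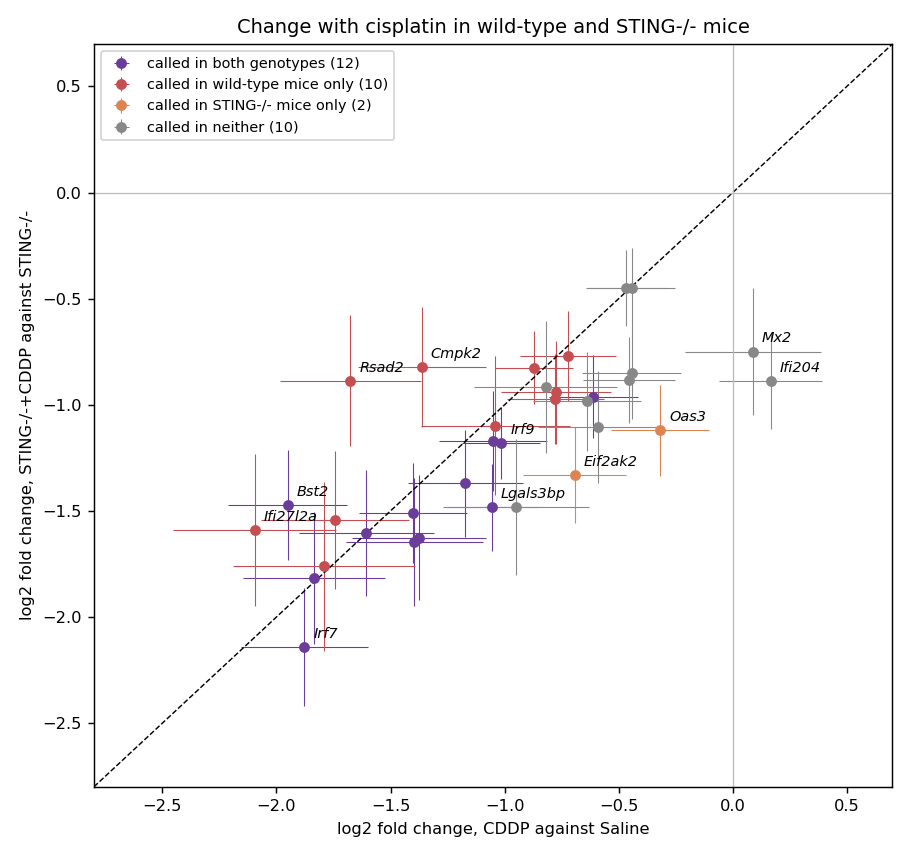
Log2 fold change of each of the 34 members with cisplatin in wild-type mice (horizontal axis) and in STING-/- mice (vertical axis), on log2(TPM + 1), with bars for 1 SE, a dashed line where both are equal, and colours for the 12 members that passed in both, the 10 and 2 that passed in 1 genotype and the 10 that passed in neither. All points lie below 0 on the vertical axis and 32 of 34 below 0 on the horizontal axis.

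Whether the members depend on STING was asked by 3 comparisons, and 0 of the 34 passed in any of them. Between STING-/- and Saline hearts, 0.0724% of all genes passed. At an unadjusted p under 0.05 there were 3 members (Oas3, Lgals3bp and Ifi204; 3.69% of all genes), all higher in the STING-/- hearts, with log2 fold changes of 0.50, 0.45 and 0.61 and an adjusted p of 1 for each. The log2 fold changes ran from -0.48 (Rsad2) to 0.61 (Ifi204) with a median of 0.20, and 29 of 34 were above 0. Oas3 and Ifi204 were higher in each STING-/- heart than in any Saline heart, as were 2.76% of all genes.

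Between STING-/-+CDDP and CDDP hearts, 1.22% of all genes passed. At an unadjusted p under 0.05 there was 1 member, Ifi27l2a, against 19.8% of all genes. Ifi27l2a was at 44.8, 127 and 113 TPM in CDDP hearts and 193, 190.2 and 160.2 TPM in STING-/-+CDDP hearts, with no overlap, as in 7.12% of all genes (log2 fold change of 1.06, 95% interval 0.27 to 1.84, adjusted p = 0.144, limma). Over the 22 alternative settings its log2 fold change ran from 0.59 (without CDDP 1) to 1.33, and it passed in 0 of them. Parp14 went the other way without overlap, at 7.04, 7.7 and 7.21 TPM in CDDP and 6.58, 6.61 and 4.5 TPM in STING-/-+CDDP hearts (log2 fold change of -0.29, adjusted p = 0.498, limma). Over the list the log2 fold changes ran from -0.45 (Ifi204) to 1.06 (Ifi27l2a), with 18 of the 34 below 0, 16 above 0 and a median of -0.02. That median turned to 0.09 with scaling by the median of ratios and to 0.12 with quantile normalization, so that the list as a whole had no direction that held across scalings. For Irf7, the log2 fold change was -0.14 (95% interval -0.75 to 0.47), for Isg15 -0.02 (-0.67 to 0.63) and for Ifit3 0.42 (-0.45 to 1.30).

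The interaction of cisplatin and genotype, which is the log2 fold change with cisplatin in STING-/- mice minus that in wild-type mice, passed for 0 members and for 0.00724% of all genes (1 gene). At an unadjusted p under 0.05 there were 2 members, Ifi204 and Oas3, against 11.7% of all genes. Ifi204 was at 17.2, 13.8 and 10.7 TPM in STING-/- against 9.26, 7.07 and 5 TPM in STING-/-+CDDP hearts, where the wild-type groups overlapped, and its interaction was -1.05 (95% interval -1.75 to -0.35, adjusted p = 0.322, limma). Oas3 had an interaction of -0.80 (95% interval -1.47 to -0.14, adjusted p = 0.377, limma), on levels of at most 1.62 TPM. For the other 32 members the interval included 0. The intervals, which are not adjusted for the number of genes, reached a median of 0.764 on the log2 scale to either side of the estimate. Larger interactions, those of Ifi204 and Oas3 among them, did not pass the adjusted test either. With 3 hearts a group, the lack of calls does not show that the falls were equal in both genotypes. The median interaction over the list was -0.17 and that of all genes was -0.101.

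**Figure D4:**
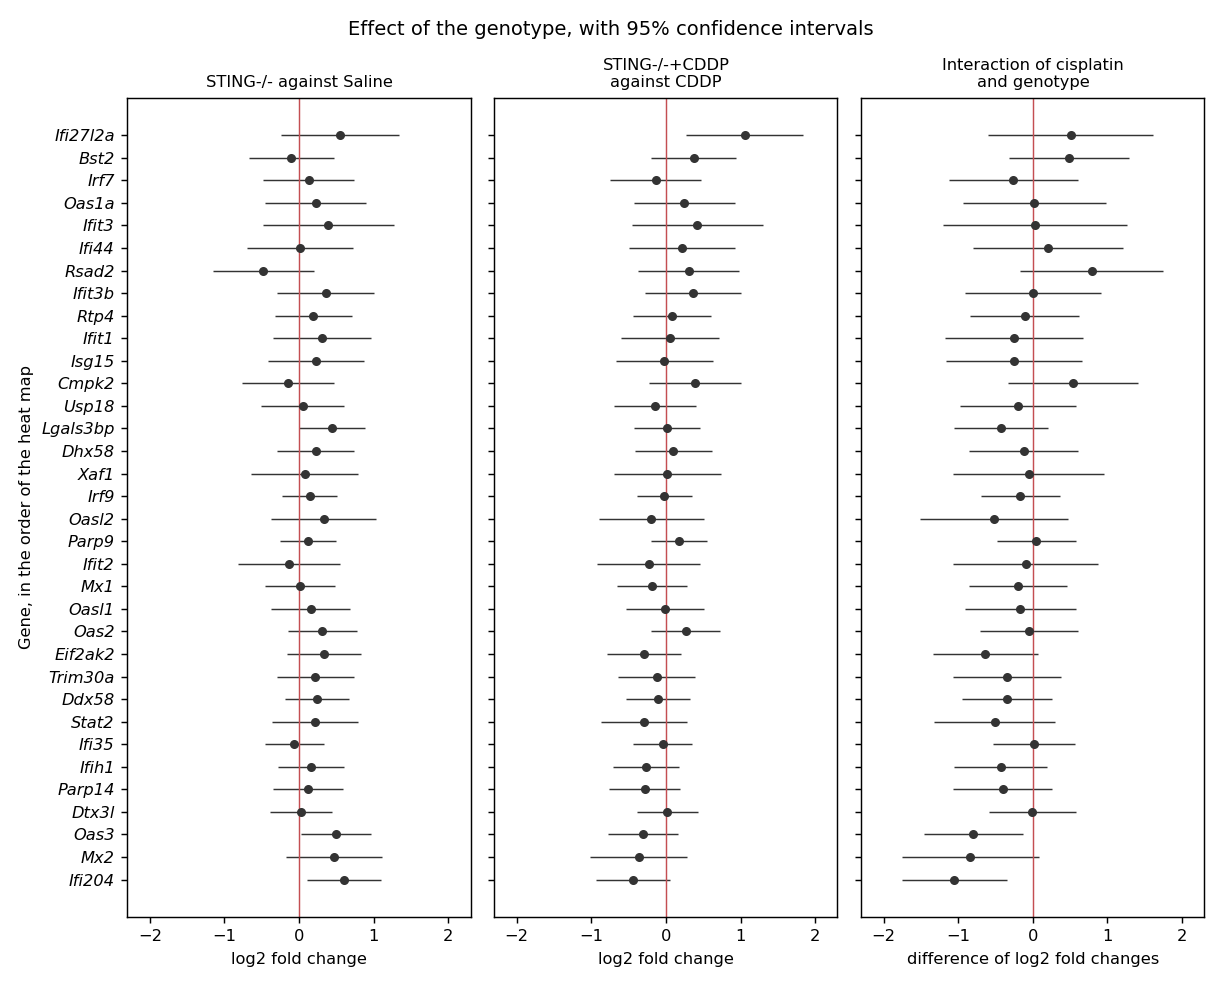
Log2 fold changes of the 34 members between STING-/- and Saline hearts and between STING-/-+CDDP and CDDP hearts, and the interaction of cisplatin and genotype, as points with 95% confidence intervals from limma, with a line at 0. Most intervals cross 0, the exceptions being Oas3, Lgals3bp and Ifi204 in the first panel, Ifi27l2a at 1.06 in the second, and Ifi204 at -1.05 and Oas3 at -0.80 in the third, and 0 of these passed the adjusted test.

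The hearts of a group differed together over the list. Taking the median of the 34 members' log2(TPM + 1) in a heart, Saline was at 3.96, 3.44 and 3.31, CDDP at 2.58, 2.85 and 2.76, STING-/- at 3.997, 3.64 and 3.54 and STING-/-+CDDP at 2.88, 2.88 and 2.46. Every heart with cisplatin was thus below every heart without it in this median. Saline 1 was the highest of its group for 30 of the 34 members, STING-/- 1 for 32, STING-/-+CDDP 1 for 23 and CDDP 2 for 24. STING-/-+CDDP 3 was the lowest of its group for 29, Saline 3 for 24, CDDP 1 for 20 and STING-/- 2 for 18. Without Saline 1, 17 members passed in the CDDP comparison, of 1241 of 13701 genes, and 17 passed without CDDP 1. In both cases the 5 that no longer passed were Oasl1, Oas2, Ddx58, Xaf1 and Mx1.

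Upstream of the members, the genes for the interferons themselves could not be tested. Of 21 interferon genes looked for, 18 were listed at 0 TPM in all 12 hearts, Ifnb1 among them, and the other 3 reached at most 0.35 TPM (Ifng), 0.29 TPM (Ifnz) and 0.06 TPM (Ifnab). The receptor chains Ifnar1 and Ifnar2 had log2 fold changes of -0.16 and -0.37 in the CDDP comparison (adjusted p = 0.562 and 0.241). Of the 9 receptor and kinase genes tested, Ifngr2 fell by 1.29 on the log2 scale (adjusted p = 0.00148), Jak2 rose by 0.53 (adjusted p = 0.0397), and 0 passed in the STING-/- mice. These shares are near the 10.4% and 8.52% of all genes. Without the CDDP 1 heart Jak2 did not pass (adjusted p = 0.0674).

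Of the transcription factors looked at beside the members, Batf2 fell by 1.12 on the log2 scale in the CDDP comparison (adjusted p = 0.0338), but it passed the filter only through hearts without cisplatin and had an adjusted p of 0.0894 without CDDP 1. In that comparison 10.4% of all genes fell and 8.52% rose. Stat3, which acts in the response to interleukin-6, rose by 1.45 (adjusted p = 0.00674), and without CDDP 1 by 1.10 (adjusted p = 0.0129). Irf3, the factor that STING signals to, had a log2 fold change of 0.20 (adjusted p = 0.471).

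Of 14 sensors and adaptors of nucleic acid tested, 1 fell and 1 rose in the CDDP comparison, near the 10.4% and 8.52% of all genes. In the STING-/- mice 2 of the 14 fell, beside 0.68% of all genes. Zbp1, a sensor of Z-form nucleic acid that is itself induced by interferon, fell in both genotypes, by 0.94 and 1.68 on the log2 scale (adjusted p = 0.0439 in wild-type and 0.0248 in STING-/- mice). Tbk1 rose by 0.56 in the wild-type mice (adjusted p = 0.0394, or 0.071 without CDDP 1), and Tlr7, the endosomal sensor of single-stranded RNA, fell by 1.83 in the STING-/- mice (adjusted p = 0.024). In the wild-type mice Tlr7 did not pass with all hearts (adjusted p = 0.0603) but fell by 1.19 without CDDP 1 (adjusted p = 0.031). Cgas was below the filter, at 0.26 to 0.65 TPM. Among 10 regulators tested, 3 fell and 1 rose in the wild-type mice, beside the 10.4% and 8.52% of all genes, and 1 fell in the STING-/- mice, beside 0.68%. Socs3, a brake on cytokine receptors, rose by 2.56 (adjusted p = 0.00736; by 1.87 without CDDP 1, adjusted p = 0.0102) in the wild-type mice, where Nlrc5, the activator of MHC class I genes, fell by 1.67 (adjusted p = 0.0222, or 0.0617 without CDDP 1) beside Uba7 and Ube2l6. Herc6, the mouse ligase for ISG15, fell in the STING-/- mice by 1.32 (adjusted p = 0.0277).

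Of 57 other ISGs tested, 19 fell and 2 rose in the CDDP comparison, beside the 10.4% and 8.52% of all genes, with a median log2 fold change of -0.49. The 19 include Ifi213 and Gm4951, which passed the filter only through hearts without cisplatin, so that their calls carry no weight as support. Without CDDP 1, 14 fell and 3 rose. The smallest adjusted p were of Mndal, which fell by 2.00 (adjusted p = 0.00135), and of the chemokine Ccl12, which fell by 2.79 (adjusted p = 0.00159). The 2 that rose were Ifitm1, a membrane protein that blocks viral fusion, by 2.22 (adjusted p = 0.00451; by 1.68 without CDDP 1, adjusted p = 0.00586) and Ifi207 by 1.14 (adjusted p = 0.0119). In the STING-/- mice 6 of the 57 fell and 0 rose, beside 0.68% and 0.253% of all genes, with a median of -0.68, and these were Oas1g, Epsti1, Ifi213, Slfn8, Ms4a4c and Phf11b. Ifi213 passed the filter only through hearts without cisplatin. Epsti1 fell in both genotypes, by 1.29 and 1.43 (adjusted p = 0.00247 and 0.0116). In the STING comparisons and the interaction 0 of these genes passed.

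Of the marker lists of other cells, those of macrophages and lymphocytes had sums that were lower with cisplatin in both genotypes, without overlap. The other lists differed among themselves. Over 13 macrophage markers, the summed level was 607 to 835 TPM in Saline, 199 to 375 TPM in CDDP, 596 to 864 TPM in STING-/- and 241 to 483 TPM in STING-/-+CDDP hearts. In the CDDP comparison 9 of the 13 fell, beside 10.4% of all genes, with a median log2 fold change of -1.29 (-0.98 for the members). In the STING-/- mice 3 of the 13 fell (Mrc1, Fcgr1 and Aif1), beside 0.68% of all genes, with a median of -1.26 (-1.11 for the members). The CDDP 1 heart had the lowest sum, and without it 8 of the 13 fell. Their part in the falls of the members was not tested.

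Over 14 lymphocyte markers, of which 4 were tested, the summed level was 7.74 to 27.6 TPM in Saline, 1.24 to 2.95 TPM in CDDP, 7.45 to 12.9 TPM in STING-/- and 2.29 to 2.80 TPM in STING-/-+CDDP hearts, and Nkg7 and Gzma fell in the CDDP comparison but passed the filter only through hearts without cisplatin. Of 10 endothelial markers 3 fell in the CDDP comparison (Cdh5, Kdr and Tie1), of 8 fibroblast markers 4 (Col1a1, Col1a2, Col3a1 and Lum), and of 8 smooth muscle and pericyte markers 2 (Rgs5 and Cspg4), beside 10.4% of all genes. The fibroblast markers Pdgfra, Dcn, Tcf21 and Dpt did not pass. Without CDDP 1, Kdr, Col1a2 and Cspg4 no longer passed. In the STING-/- mice 0 markers of these 3 lists passed, where 0.68% of all genes fell. The median log2 fold changes of the lists there were -0.187, -0.785 and -0.829, in the same order. Of 10 cardiomyocyte markers, Actc1 fell and Tnnt2 rose in the CDDP comparison, near the 10.4% and 8.52% of all genes. Without CDDP 1, Actn2 rose as well (adjusted p = 0.0411). The summed level of the 10 was 43500 to 62300 TPM in Saline against 30200 to 46000 TPM in CDDP hearts. The red blood cell markers fell in the CDDP comparison in 5 of 5 tested, with sums of 4150 to 9320 TPM in Saline, 41.9 to 1270 TPM in CDDP, 264 to 1470 TPM in STING-/- and 81.9 to 311 TPM in STING-/-+CDDP hearts, so that they were also low in the STING-/- hearts without cisplatin, where the members had a median log2 fold change of 0.20 against Saline. Without the hemoglobin genes in the total, 22 and 15 members passed in the wild-type and the STING-/- mice. Dendritic cell and neutrophil markers gave 0 of 2 and 0 of 5 calls in the CDDP comparison, with median log2 fold changes of -0.37 and 2.81. Without CDDP 1 the neutrophil median was 1.12, and Mmp8 rose (adjusted p = 0.0436), at 1.3 and 1.23 TPM in CDDP 2 and CDDP 3. Of 9 monocyte markers Spn fell and Nr4a1 rose, near the 10.4% and 8.52% of all genes. Spn passed the filter only through hearts without cisplatin. The part of these cells in the members' values was not tested.

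**Figure D5:**
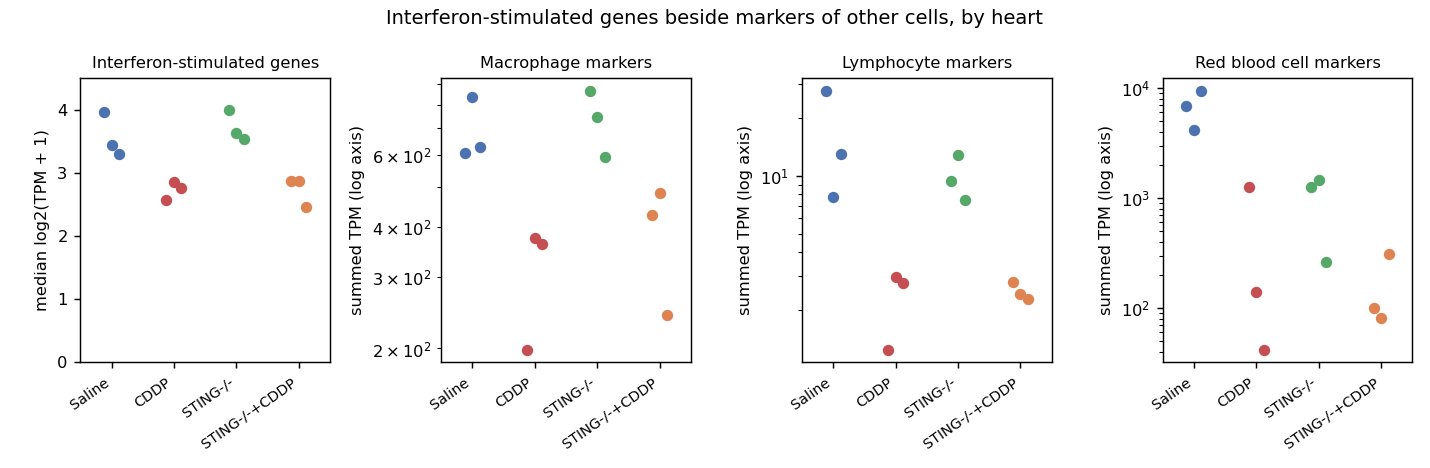
By heart and group, the median log2(TPM + 1) of the 34 members beside the summed TPM of macrophage, lymphocyte and red blood cell markers on log axes, with points for hearts. The members' median lies between 2.46 and 2.88 in the hearts with cisplatin and between 3.31 and 3.997 in those without, and the macrophage sum lies between 199 and 483 TPM with cisplatin and between 596 and 864 TPM without.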

How the data were processed

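Total RNA from 12 mouse hearts was sequenced by the authors, and the deposited table gives 1 TPM value (transcripts per 1000000, scaled per gene length) per gene and heart, beside the gene length, another deposited column. The submitters' processing notes name fastp, HISAT, RSEM and GRCm38.p5, and versions, annotation release and strand are not given in the sources used here. TPM holds no read counts, so that the depth of each heart is unknown and no counting interval is given. The authors' 4 columns of group means were not used, and of the per-heart columns 0 were left without a sample.

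Groups were taken from the labels. Values were analysed as log2(TPM + 1) for the 13815 of 55885 genes with at least 1 TPM in at least 3 hearts. One limma 3.58.1 model (R 4.3.3, eBayes with a trend, 8 residual degrees of freedom) over the 12 hearts gave 4 comparisons and the interaction of cisplatin and genotype, with p-values adjusted by Benjamini-Hochberg over all genes tested and a threshold of 0.05. An exact permutation test of 3 against 3 hearts cannot go below p = 0.1 and is not printed. The fit was tested on simulated data. Hearts of different groups with the same number are different animals, and over all genes tested same-numbered hearts did not deviate together (correlations of -0.333 to 0.261). Over the members alone, replicate 1 was the highest for most of them in the Saline, STING-/- and STING-/-+CDDP groups, but not in the CDDP group. Alternatives were the pseudocount, the filter, the groups in the fit, the scaling, the trend, the replicate block and each heart left out. Leaving out CDDP 1 for the genes of the other lists was added after the data were seen.

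All 34 members were reported by role, with TPM per heart for those that passed. One listed gene is not reported here. From the other lists the named genes were the receptor chains, Irf3, Cgas and the 3 with the smallest adjusted p among those that passed. Ifitm1, Ifi207, Nlrc5, Ifi213, Gm4951, Slfn8, Ms4a4c, Phf11b and the markers were named after their values were seen. The members and lists were chosen with earlier results of these data known. Promoter windows were taken from RefSeq on GRCm38.p6, gene positions and shared 50-base words from GENCODE M21 (GRCm38), and figures were drawn with matplotlib 3.10.9.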

Additional observations from a re-analysis of the deposited data

How the results depend on the processing

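The direction of the members held better than the number that passed. With cisplatin, 32 or 33 of 34 log2 fold changes were below 0 in wild-type mice and 34 of 34 in STING-/- mice under every setting that tested all 34 (28 and 29 of 29 with a minimum of 5 TPM). In wild-type mice 22 members passed, 14 with the compared groups alone in the fit, and 17 to 22 with 1 heart left out. In STING-/- mice 14 passed, 3 with no filter on low values, and 1 to 19 with 1 heart left out. It was 1, 3 and 5 without STING-/- replicates 1, 2 and 3, and 1, 4 and 2 without STING-/-+CDDP replicates 1, 2 and 3. The median log2 fold change there was -1.11, and -1.40 with a pseudocount of 0.1, which understates low genes less. With 1 heart left out the medians ran from -1.15 to -0.79 in wild-type mice, from -1.23 to -0.995 in STING-/- mice, from -0.10 to 0.09 between STING-/-+CDDP and CDDP, from 0.04 to 0.39 between STING-/- and Saline, and from -0.36 to 0.02 (without STING-/- 1) for the interaction. In these last 3 the count of members was 0 under every setting. With the replicate block 24 and 14 members passed with cisplatin in wild-type and STING-/- mice and 0 in the other comparisons, but the numbers do not pair the hearts. Scaling by the median of ratios moved the median of all genes in the STING-/- mice from -0.107 to 0.008 and that of the members from -1.11 to -1.02. All genes that passed numbered 2610 in wild-type mice (822 with the compared groups alone, 3810 and 3904 by median of ratios and quantile normalization) and 129 in STING-/- mice (46 with no filter, 204 with the compared groups alone, 251 and 297 by those scalings). The cause of these shifts was not tested.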
